A study of Homo sapiens with 6 samples.

Results

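This section describes the transcripts of 39 genes of the hypoxia response and of glycolysis in Caco-2 cells after knockdown of syndecan-1. The genes were taken from a named list, and a gene was measured where the platform annotation gave at least 1 probe set that carried its symbol and no other. On this basis 38 of the 39 genes were measured, by 88 of the 54675 probe sets on the array, out of 19775 genes measured in all. CA9, a membrane carbonic anhydrase, was not analysed here. Of the 38 genes, 15 encode enzymes or direct regulators of glycolysis, 20 are other genes that hypoxia can induce, and 3 (HIF1A, EPAS1 and VHL) regulate the response. Caco-2 is a human colorectal adenocarcinoma line with enterocyte-like features. The groups were Caco-2 cells transfected with SDC1 siRNA (3 arrays) and Caco-2 cells transfected with a negative control siRNA (3 arrays), both grown at 37°C under 5% carbon dioxide. No oxygen level or hypoxic treatment is given in the sources used here. Nothing says whether the replicates came from separate cultures, so p-values reflect array-to-array spread alone, possibly a technical one.

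Cells sense oxygen through prolyl hydroxylases of the EGLN family, which mark the alpha subunits of hypoxia-inducible factor (HIF) for recognition by VHL and destruction. When oxygen is short the alpha subunits HIF1A and EPAS1 persist, pair with ARNT and bind a short DNA core near their target genes. The targets include most enzymes of glycolysis, pyruvate dehydrogenase kinases that hold pyruvate back from mitochondria, mitophagy receptors, collagen-modifying enzymes and secreted signals such as VEGFA. In the intestine the epithelium normally lives under a steep oxygen gradient, and HIF activity is part of its barrier function.

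The letters ACGTG form the common core of the HIF binding element. The 250 bases before the start sites of the listed genes, as RefSeq gives them on GRCh38.p14, were searched for it on both strands. A palindromic CACGTG counts as 1 match on each strand, and the 2 matches share 4 letters. At least 1 match lay in a window of 10 of 15 glycolytic enzymes (66.7%) and of 13 of 18 other hypoxia-inducible genes with a window, CA9 included (72.2%). The share was 21.7% of the 27305 genes in the table. A gene with several windows has more room for a match. Counted by window, 50% of the 58 windows of listed genes held a match, against 18.5% of all 35116. The genes were listed for their place in these pathways, so the shares are a description. Neither of the 2 regulators with a window, HIF1A and EPAS1, held a match. The windows below are shown because both groups compared below carry the core. They are those of PDK1 and INSIG2, which were lower in every SDC1 siRNA array, and of BNIP3, whose groups overlapped. BNIP3L, the close relative of BNIP3, had no window, nor had VEGFA, NDRG1 and VHL. The remaining windows are those of the glycolytic enzymes LDHA and PGK1, which sat near 0. Capitals mark each match, and each window ends just before the start site. Where a gene has several start sites, the window with the most matches was taken. The windows are chr2:172555840-172556089 (plus strand) for PDK1, chr2:118088221-118088470 (plus) for INSIG2, chr10:131981924-131982173 (minus) for BNIP3, chr11:18394313-18394562 (plus) for LDHA and chrX:78103998-78104247 (plus) for PGK1.
PDK1: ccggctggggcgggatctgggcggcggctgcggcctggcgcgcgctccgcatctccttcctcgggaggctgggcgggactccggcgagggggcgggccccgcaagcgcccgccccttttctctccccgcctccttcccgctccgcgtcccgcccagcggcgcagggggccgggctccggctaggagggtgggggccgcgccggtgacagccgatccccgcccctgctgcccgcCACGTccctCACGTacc
INSIG2: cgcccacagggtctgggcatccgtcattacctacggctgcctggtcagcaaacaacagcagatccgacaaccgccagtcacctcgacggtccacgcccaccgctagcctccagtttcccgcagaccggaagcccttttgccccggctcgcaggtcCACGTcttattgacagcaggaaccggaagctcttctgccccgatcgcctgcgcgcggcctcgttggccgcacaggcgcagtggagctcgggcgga
BNIP3: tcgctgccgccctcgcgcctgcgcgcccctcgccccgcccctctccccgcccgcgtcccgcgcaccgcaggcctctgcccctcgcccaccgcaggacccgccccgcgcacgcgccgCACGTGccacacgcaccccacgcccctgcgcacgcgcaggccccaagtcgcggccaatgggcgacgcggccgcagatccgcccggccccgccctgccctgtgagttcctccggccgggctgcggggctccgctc
LDHA: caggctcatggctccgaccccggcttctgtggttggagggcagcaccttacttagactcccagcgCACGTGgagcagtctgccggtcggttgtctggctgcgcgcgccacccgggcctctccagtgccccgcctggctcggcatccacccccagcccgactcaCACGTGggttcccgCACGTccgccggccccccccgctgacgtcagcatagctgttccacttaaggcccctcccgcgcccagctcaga
PGK1: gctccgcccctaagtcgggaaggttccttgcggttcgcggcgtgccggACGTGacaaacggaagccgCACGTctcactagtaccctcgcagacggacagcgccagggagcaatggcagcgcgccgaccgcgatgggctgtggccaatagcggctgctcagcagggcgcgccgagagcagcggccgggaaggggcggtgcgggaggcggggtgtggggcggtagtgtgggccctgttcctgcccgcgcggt
LDHA held 5 matches in this window, PDK1, BNIP3 and PGK1 held 2 each and INSIG2 held 1. A match describes these letters and does not show that a factor bound there.

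Values are log2 signals centred, probe set by probe set, at the median of the 6 arrays. They show differences between arrays and not how strongly a gene was expressed. A rough brightness class (log2 signal of 8 to 16, 4 to 8 or below 4) was read from the storage steps of the values, and each gene was given the mean of its probe sets in its brightest class. SDC1 itself was at -0.50, -0.62 and -0.34 with SDC1 siRNA, against 0.37, 0.35 and 0.35 with control siRNA, a difference of -0.84 ± 0.08 (standard error; limma adjusted p = 0.0238 over all genes). Leaving out any 1 array ended this call (adjusted p between 0.0615 and 0.326). The median absolute difference between 2 arrays over all genes ran from 0.09 to 0.15. Of 12 enterocyte-like epithelial markers, 4 (CDH1, EPCAM, KRT8 and KRT18) were in the brightest class, and KRT20, FABP1 and SI were in the dimmest. The sum of relative log2 signals over these 12 markers ran from -0.14 to 0.57 with SDC1 siRNA, against -0.94 to -0.03 with control siRNA. Over 12 markers of fibroblasts, endothelium and leukocytes it ran from 0.23 to 0.46, against -0.69 to -0.28, and among these 12, COL1A1 and VWF were in the brightest class, 9 in the middle one and PTPRC in the dimmest. At an unadjusted limma p under 0.05, 3 of these 12 were higher (CDH5, VWF and CD3E) and 2 lower (COL3A1 and PDGFRB). Of all genes 5.43% were higher and 5.19% lower at that level, and no epithelial marker reached it. Neither marker list held a gene past an adjusted p of 0.05, and the part of these shifts in the results below was not tested. The 3′ minus 5′ control signal, a gauge of RNA integrity, was -0.07, -0.13 and 0.04 for ACTB with SDC1 siRNA, against 0.05, 0.16 and -0.05 with control siRNA. For GAPDH it was -0.07, -0.01 and 0.05, against 0.01, -0.06 and 0.04, and the groups overlapped in both.

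None of the 38 genes passed an adjusted p of 0.05 in the limma fit with Benjamini-Hochberg adjustment over all 19775 genes, in which 5 genes (0.0253%) passed. The lowest adjusted p among them was 0.261, for BNIP3L. At an unadjusted p under 0.05 there were 3 of the 38, BNIP3L, PDK1 and INSIG2, all lower with SDC1 siRNA (7.89%, against 5.19% of all genes that were lower at that level). None was higher at that level, where 5.43% of all genes were, and 10.6% of all genes reached it in either direction. The count of 3 was 9 without control replicate 2, 6 without control replicate 3 and 3 or 4 without any other array. The share of all genes at that level was not counted in those fits, so whether the rise is particular to the 38 genes was not tested. A lower signal in total RNA does not tell fewer expressing cells from less RNA per cell. In the plot of all differences with their intervals, the glycolytic enzymes cluster at 0 and the other hypoxia-inducible genes spread to the left.

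**Figure D1:**
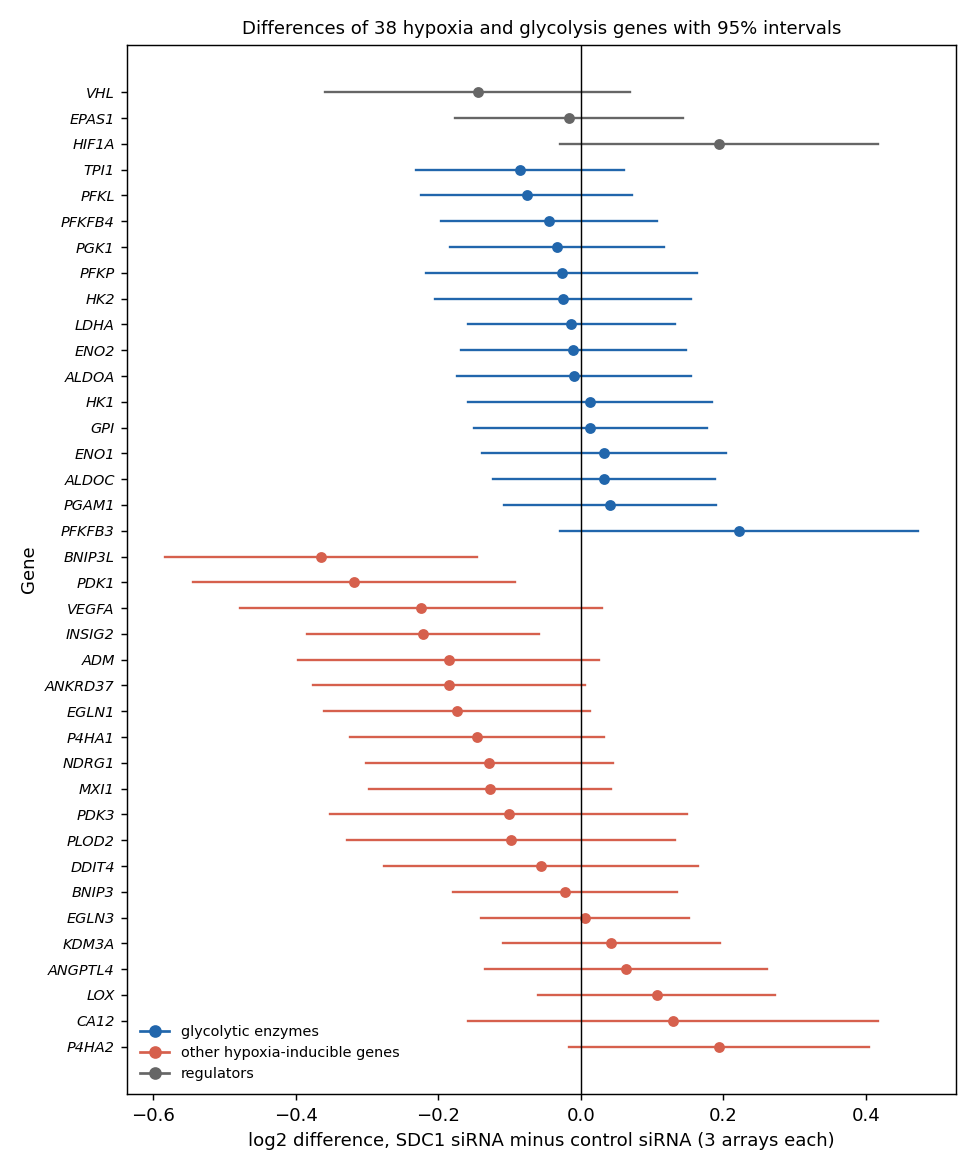
Log2 difference (SDC1 siRNA minus control siRNA, x axis) of each of the 38 genes (y axis) with its 95% interval from limma, 3 arrays per group, coloured by group and ordered by value within each. The intervals of BNIP3L, PDK1 and INSIG2 lie below 0, and 14 of 15 glycolytic enzymes have intervals within 0.25 of 0.

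The glycolytic enzymes were nearly flat. Of 15, 9 were below 0 and 6 above, and the median difference was -0.01, beside 0.0060 for all genes. In 14 of 15 the difference was under 0.1 in size (93.3%), against 60.0% of all genes and 68.9% of the 5977 genes in the brightest class, to which 12 of the 15 belong. The 95% intervals of those same 14 stayed within 0.25 of 0 on the log2 scale, which leaves room for changes of up to 1.19-fold either way. Among the genes of the brightest class 50.3% had such an interval. The standard errors had a median of 0.07 in the glycolytic enzymes and 0.08 in that class.

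**Figure D2:**
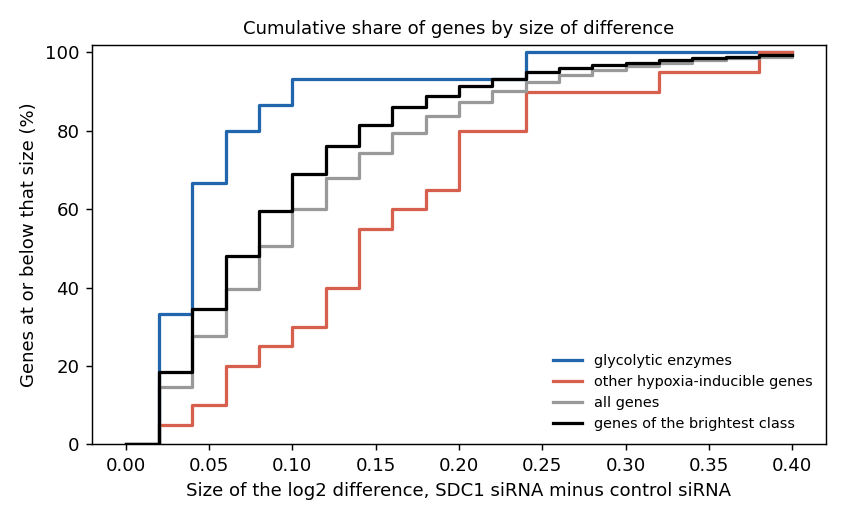
Share of genes (%, y axis) whose log2 difference between SDC1 siRNA and control siRNA is at or below a given size (x axis, steps of 0.02), for 15 glycolytic enzymes, 20 other hypoxia-inducible genes, all 19775 genes and the 5977 genes of the brightest class. At a size of 0.1 the curves stand at 93.3% for the glycolytic enzymes, 60.0% for all genes and 68.9% for the brightest class, and 6 of the 20 other hypoxia-inducible genes.

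In 2 glycolytic genes, TPI1 and PFKL, the groups did not overlap. TPI1, triosephosphate isomerase, which interconverts the 2 triose phosphates, was at -0.06, -0.01 and -0.04 with SDC1 siRNA, against 0.06, 0.01 and 0.07 with control siRNA. Every SDC1 siRNA array was lower, by little: the difference was -0.09 ± 0.06 (unadjusted p = 0.215, limma adjusted p = 0.689). PFKL, the liver-type phosphofructokinase, was at -0.03, -0.05 and -0.02, against 0.06, -0.0080 and 0.08, with a difference of -0.08 ± 0.06 (unadjusted p = 0.273). These are 2 of 15 genes lower in every SDC1 siRNA array (13.3%), where the share was 8.47% of all genes and 11.8% of genes in the brightest class. PFKP, the platelet-type isoform, was at -0.03. The hexokinases HK1 and HK2, which trap glucose in the cell, were at 0.01 and -0.02, and the glucose-phosphate isomerase GPI was at 0.01. The aldolases ALDOA and ALDOC were at -0.0094 and 0.03.

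All 5 listed enzymes filed under the later, triose phase had overlapping groups. TPI1 was filed under the earlier, hexose phase. PGAM1, phosphoglycerate mutase, had the lowest p of the 5 and was at -0.03, 0.05 and 0.05 with SDC1 siRNA, against -0.0057, 0.0057 and -0.05 with control siRNA. Its groups overlapped (difference 0.04 ± 0.07, unadjusted p = 0.549). LDHA, the lactate dehydrogenase subunit that regenerates the cofactor for glycolysis, was at -0.03, -0.0094 and 0.02, against -0.02, 0.03 and 0.0094. Its difference of -0.01 had a 95% interval from -0.16 to 0.13. PGK1, phosphoglycerate kinase, was at -0.03 with an interval from -0.18 to 0.12, and the enolases ENO1 and ENO2 were at 0.03 and -0.01.

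PFKFB3 had the widest difference of the 15. With PFKFB4 it makes and degrades a sugar phosphate that sets the pace of phosphofructokinase. It was at -0.03, 0.08 and 0.17 with SDC1 siRNA, against -0.38, 0.03 and -0.09 with control siRNA. The groups overlapped, and control replicate 1 was the lowest array. The difference was 0.22 ± 0.11 (interval from -0.03 to 0.47, limma adjusted p = 0.518), from 1 probe set in the middle brightness class, and was 0.11 without control replicate 1. PFKFB4 was at -0.04 ± 0.07.

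The other hypoxia-inducible genes leaned lower. Of 20, 14 were below 0 and 6 above, and the median difference was -0.11. The share below 0 was 70.0%, against 47.9% of all genes and 56.9% of the genes in the brightest class, to which 16 of the 20 belong. In 5 of them (EGLN1, PDK1, BNIP3L, ANKRD37 and INSIG2, 25.0%) the SDC1 siRNA arrays all lay below the controls, where the share was 8.47% of all genes and 11.8% of those in the brightest class. P4HA2 alone was higher in every SDC1 siRNA array (5.00% of 20 genes, against 8.26% of all genes). With 3 arrays a group the smallest p of an exact two-sided permutation test is 0.1, and each of the 8 genes with separate groups, glycolytic ones included, had that value.

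The 2 medians differed by 0.10 (glycolytic minus other hypoxia-inducible, log2 differences). On single arrays the gap between the median signals of the 2 sets had an SD between replicates of 0.04, pooled over the groups. That is another measure than the 0.10, which compares medians of differences, so the SD does not give the precision of the 0.10. On single arrays the median relative signal of the 20 other genes was -0.09, -0.06 and 0.02 in SDC1 siRNA replicates 1, 2 and 3, against 0.0024, 0.06 and 0.04 in the controls. The third SDC1 siRNA array lay among the controls. The median of the 15 glycolytic enzymes was -0.04, 0.01 and 0.0028, against 0.01, 0.0074 and 0.02. Control replicate 2 held the highest value of 11 of the 20 other genes and of 3 of the 15 glycolytic enzymes, against 22.6% of all genes. Without that array the gap was 0.10, and it lay between 0.09 and 0.14 when any 1 array was left out. The gap was 0.08 when all probe sets of a gene were averaged. It is a description, since the members were chosen with earlier results known.

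**Figure D3:**
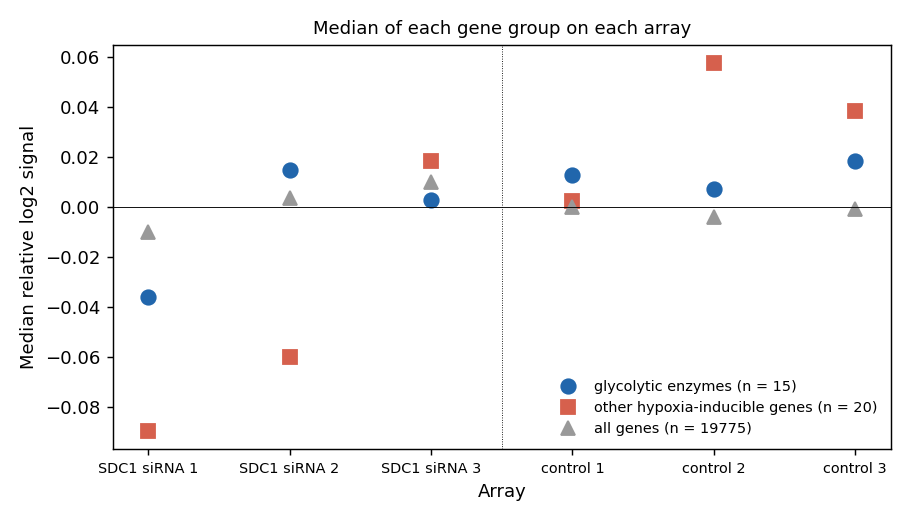
Median relative log2 signal (y axis) of 15 glycolytic enzymes, 20 other hypoxia-inducible genes and all 19775 genes on each of the 6 arrays (x axis). The squares of the other hypoxia-inducible genes are at -0.09, -0.06 and 0.02 on the SDC1 siRNA arrays and at 0.0024, 0.06 and 0.04 on the control arrays, while the glycolytic enzymes stay between -0.04 and 0.02.

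Genes that act on mitochondria held the largest differences of the list. BNIP3L, a receptor in the outer mitochondrial membrane that recruits mitochondria into autophagosomes, was at -0.18, -0.26 and -0.04 with SDC1 siRNA, against 0.22, 0.34 and 0.04 with control siRNA. All SDC1 siRNA arrays were lower, with replicate 3 of each group closest to 0. The difference was -0.36 ± 0.10, a 1.29-fold lower signal (interval from -0.58 to -0.14, unadjusted p = 0.00476, limma adjusted p = 0.261). Its 2 probe sets, both of the brightest class, gave -0.34 ± 0.12 and -0.39 ± 0.09. BNIP3, its relative and also a mitophagy receptor, was at 0.0099, -0.06 and 0.01, against -0.04, 0.08 and -0.01, with overlapping groups and a difference of -0.02 ± 0.07.

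PDK1, which phosphorylates and shuts pyruvate dehydrogenase, was at -0.17, -0.27 and -0.05 with SDC1 siRNA, against 0.07, 0.34 and 0.05 with control siRNA. All SDC1 siRNA arrays were lower, and control replicate 2 was far above the other controls. The difference was -0.32 ± 0.10, a 1.25-fold lower signal (interval from -0.54 to -0.09, unadjusted p = 0.0113, limma adjusted p = 0.319), and -0.23 without control replicate 2. It rests on the 1 probe set in the brightest class. The other 2 PDK1 probe sets gave -0.09 ± 0.11 and -0.03 ± 0.11, and the mean of the 3 was -0.15. PDK3, another kinase of the family, was at -0.10 ± 0.11, with overlapping groups. It was at -0.21 without control replicate 2, -0.01 without control replicate 3, -0.04 without SDC1 siRNA replicate 1 and -0.06 when its probe sets were averaged.

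Of 6 genes filed loosely under growth control and chromatin, INSIG2, a gene of sterol control, had the lowest p. It encodes a membrane protein that holds back the processing of the SREBP factors of sterol synthesis. It was at -0.06, -0.07 and -0.09 with SDC1 siRNA, against 0.14, 0.24 and 0.06 with control siRNA. The difference was -0.22 ± 0.07, a 1.17-fold lower signal (interval from -0.38 to -0.06, unadjusted p = 0.0134, limma adjusted p = 0.329), from 1 probe set. ANKRD37, an ankyrin repeat protein known as a HIF target, was at -0.18 ± 0.08 with separate groups, although the lowest control, at 0.0041, and the highest SDC1 siRNA array, at -0.0041, nearly met. Its second, dim probe set gave -0.22 ± 0.10, and without SDC1 siRNA replicate 1 the gene was at -0.11. NDRG1, a stress response gene, was at -0.13 ± 0.08, and MXI1, an antagonist of MYC, at -0.13 ± 0.07, or -0.08 without SDC1 siRNA replicate 2. DDIT4, an inhibitor of mTOR signalling, was at -0.12, -0.19 and 0.16 with SDC1 siRNA, against -0.0070, 0.0070 and 0.01 with control siRNA. Its SDC1 siRNA arrays spread on both sides of the controls. The histone demethylase KDM3A was at 0.04 ± 0.07.

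**Figure D4:**
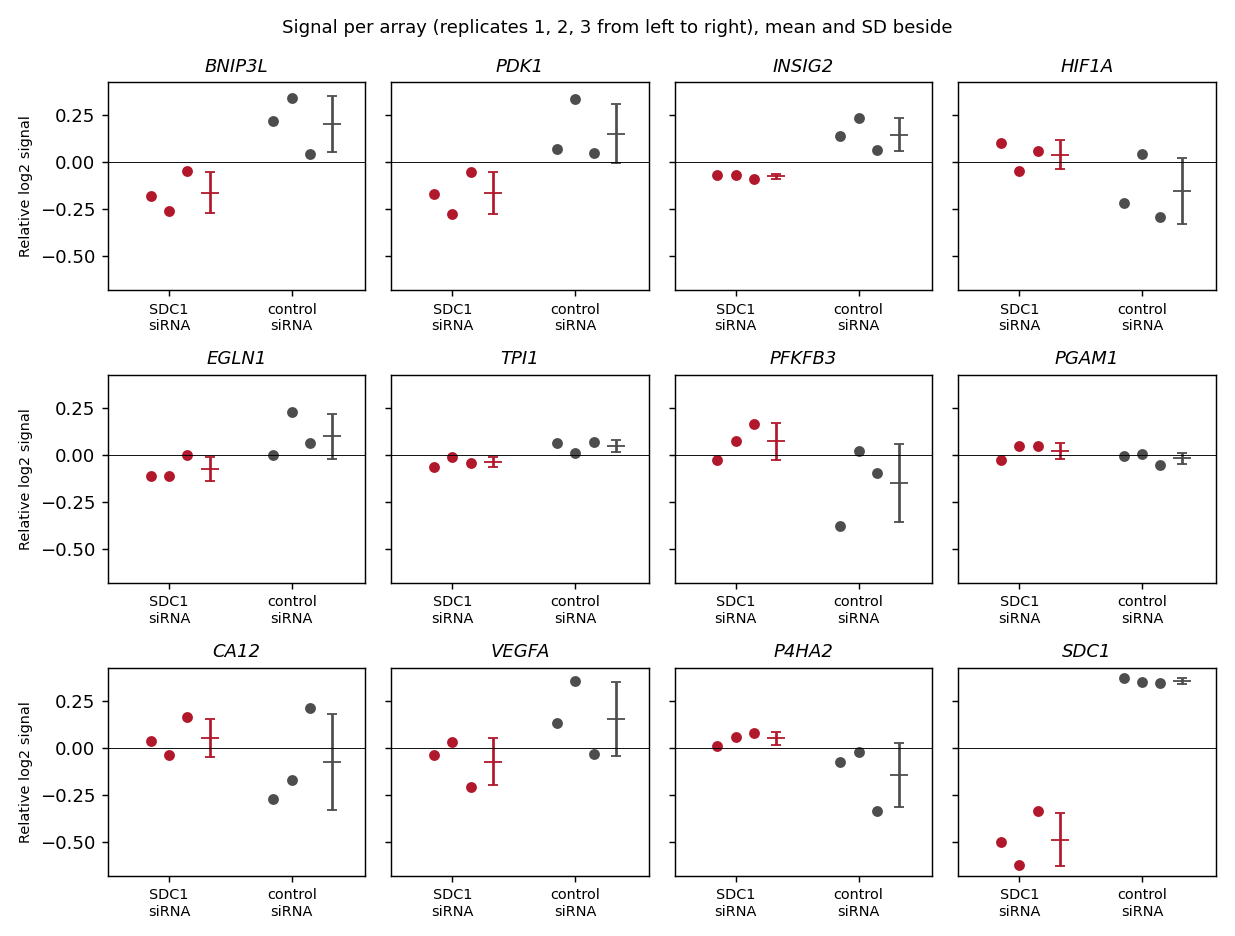
Relative log2 signal (y axis, points are arrays, replicates 1 to 3 from left to right, bars are mean and SD) with SDC1 siRNA and control siRNA for SDC1 and 11 of the hypoxia and glycolysis genes. BNIP3L, PDK1, INSIG2, EGLN1 and TPI1 are lower and P4HA2 higher in every SDC1 siRNA array, and SDC1 shows the widest gap between its groups.

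Secreted signals and pH regulators showed wide spreads between arrays. VEGFA, the main angiogenic growth factor of the hypoxia response, was at -0.04, 0.03 and -0.21 with SDC1 siRNA, against 0.13, 0.36 and -0.03 with control siRNA. The groups overlapped, with control replicate 2 highest (difference -0.22 ± 0.11, interval from -0.48 to 0.03, limma adjusted p = 0.519). Of its 4 probe sets 3 were below 0, at -0.22, -0.16 and -0.24, and 1 was at 0.13. VEGFA was at -0.12 without control replicate 2, and also when its 4 probe sets were averaged. ADM, the vasodilator peptide adrenomedullin, was at -0.19 ± 0.09, and ANGPTL4, an inhibitor of lipoprotein lipase, at 0.06 ± 0.09.

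CA12, a carbonic anhydrase of the cell surface, was at 0.04, -0.04 and 0.16 with SDC1 siRNA, against -0.27, -0.17 and 0.21 with control siRNA. Control replicate 3 was the highest array and the groups overlapped (difference 0.13 ± 0.13, limma adjusted p = 0.769). Without control replicate 1, 2 or 3 the difference was 0.03, 0.08 or 0.27, and without SDC1 siRNA replicate 3 it was 0.08. Its 7 probe sets were all above 0, from 0.03 to 0.34. The one at 0.34 ± 0.10, of the middle class, had separate groups and an unadjusted p of 0.0084 as a single probe set (limma adjusted p = 0.462 over all probe sets).

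Enzymes that modify collagen had differences of both signs. P4HA2, a catalytic subunit of collagen prolyl hydroxylase, was at 0.01, 0.06 and 0.08 with SDC1 siRNA, against -0.08, -0.02 and -0.33 with control siRNA. All SDC1 siRNA arrays were higher, and control replicate 3 was the lowest array. The difference was 0.19 ± 0.09 (interval from -0.02 to 0.40, limma adjusted p = 0.508) and 0.10 without control replicate 3. P4HA1, the alternative subunit of the same enzyme, was at -0.15 ± 0.08 with overlapping groups, its dim probe set was at 0.09 ± 0.10, and the mean of both was at -0.03. The lysyl hydroxylase PLOD2 was at -0.10 ± 0.10, and -0.00023 without control replicate 2. LOX, which crosslinks collagen, was at 0.11 ± 0.07 and was the only measured gene of the list in the dimmest class. It was at 0.07 without SDC1 siRNA replicate 1.

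Of the oxygen sensors, EGLN1, the main HIF prolyl hydroxylase in most cells, was at -0.11, -0.11 and -0.00078 with SDC1 siRNA, against 0.00078, 0.23 and 0.07 with control siRNA. The groups did not overlap, but replicate 3 with SDC1 siRNA and replicate 1 of the controls were almost level. The difference was -0.17 ± 0.08 (interval from -0.36 to 0.01, limma adjusted p = 0.504). It was -0.11 without control replicate 2 and -0.09 when its 4 probe sets were averaged. Its 4 probe sets gave -0.17, -0.26, -0.07 and, for the dimmest, 0.16. EGLN3, an isoenzyme that hypoxia strongly induces, was at 0.0064 ± 0.06.

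The 3 regulators had overlapping groups. HIF1A was at 0.10, -0.04 and 0.06 with SDC1 siRNA, against -0.22, 0.04 and -0.29 with control siRNA. Control replicate 2 lay among the SDC1 siRNA arrays, and the difference was 0.19 ± 0.10 (interval from -0.03 to 0.42, limma adjusted p = 0.530). It was 0.29 without control replicate 2 and 0.13 without control replicate 3. EPAS1 was at -0.02 ± 0.07 and VHL at -0.14 ± 0.09, both with overlapping groups. VHL was at -0.22 without control replicate 2 and -0.08 without SDC1 siRNA replicate 1. HIF alpha subunits are controlled mainly through protein stability, which arrays do not measure.

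Differences of single probe sets of the members ran from -0.39 (BNIP3L) to 0.34 (CA12). Probe sets of the same gene could differ in size and in sign, as in VEGFA and EGLN1. Of the 88 probe sets of the members, 7 (7.95%) had an unadjusted p under 0.05, 6 lower and 1 higher, against 8.33% of all 54613 probe sets. The groups did not overlap in 14 (15.9%), against 14.5% of all probe sets. Fitted singly, 0 of 54613 probe sets passed an adjusted p of 0.05, and the lowest adjusted p of the 88 was 0.403. Both shares were near those over the whole array.

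**Figure D5:**
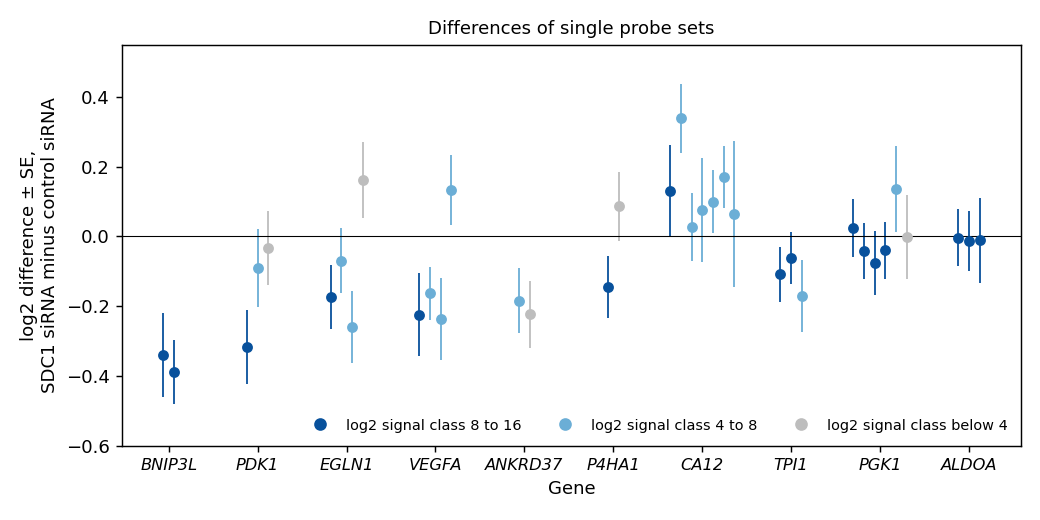
Log2 difference (SDC1 siRNA minus control siRNA, y axis, bars are standard errors) of every probe set of 10 of the genes with more than 1 probe set (x axis), coloured by brightness class. The 2 probe sets of BNIP3L lie together at -0.34 and -0.39, those of PDK1 range from -0.32 to -0.03, and the 3 of ALDOA lie within 0.02 of 0.

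Further genes of the same pathways came from a second list of 75, of which 68 were measured. None passed an adjusted p of 0.05. At an unadjusted p under 0.05 there were 6 higher and 5 lower of the 68, against 5.43% of all genes higher and 5.19% lower. The groups did not overlap in 7 higher and 8 lower genes, against 8.26% and 8.47% of all genes. The median difference was -0.0061. Of these genes, 19 are further hypoxia targets, of which 10 were below 0 (52.6%, beside 70.0% of the 20 above). Their median difference was -0.01, beside -0.11, and none had an unadjusted p under 0.05 in either direction. These 19 leave out targets listed under another role. Genes under those roles went both ways: 4 of 6 glycogen genes, 3 of 5 transport genes and 7 of 15 further glycolytic genes were above 0. GBE1 (glycogen) and SLC2A1 (glucose transport) were both lower and are given next. GBE1, the glycogen branching enzyme and a known hypoxia target, was at -0.23, -0.16 and -0.19 with SDC1 siRNA, against 0.16, 0.24 and 0.17 with control siRNA. Its groups were wide apart (difference -0.38 ± 0.07, unadjusted p = 0.000359, limma adjusted p = 0.115). SLC2A1, the basal glucose transporter and a HIF target, was at -0.20, -0.09 and -0.07, against 0.08, 0.18 and 0.07 (difference -0.23 ± 0.07).

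Among further HIF pathway genes HIF1AN, which hydroxylates an asparagine of HIF alpha subunits, was at -0.24 ± 0.08. CITED2, which competes with HIF for coactivators, was at -0.20 ± 0.07, and SIAH2, a ubiquitin ligase, at 0.19 ± 0.07. Of 15 further glycolytic genes 4 were higher at an unadjusted p under 0.05 and none lower, against 5.43% and 5.19% of all genes. They were led by PKLR, the pyruvate kinase of liver and red cells, at 0.32 ± 0.07 (unadjusted p = 0.00103, limma adjusted p = 0.160), and LDHC, a lactate dehydrogenase subunit of testis, at 0.23 ± 0.08. Both were of the middle brightness class. The others were PFKFB1, also of the middle class, at 0.19 ± 0.08, and PGM1, of the brightest class, at 0.18 ± 0.07. PDP1, a phosphatase that reactivates pyruvate dehydrogenase and so opposes PDK1, was at 0.29 ± 0.09, with every SDC1 siRNA array higher. GAPDH, the glycolytic dehydrogenase, was at -0.03 ± 0.06 and PKM, the widespread pyruvate kinase, at -0.15 ± 0.10, with overlapping groups in both.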

How the data were processed

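Total RNA of 6 samples, 3 in each group by title, was made into biotinylated cRNA for Affymetrix arrays, per the labels' protocols. The submitters' processing notes name RMA without a version, and the authors deposited log2 values. Each of the 54675 probe sets had a 6-array median of 0 (tolerance 1e-06), so absolute levels were gone, and the log base was read from storage steps. By these steps 9444 probe sets fell in the brightest class, 24721 in the middle one and 20510 in the dimmest. Crossing a bound on any array puts a probe set in the lower class. Of the probe sets, 41091 had 1 gene symbol, 1801 several, 11721 none and 62 were controls. Symbols came from the platform annotation, updated through Entrez identifiers (99.9% matched).

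Differences were fitted by limma 3.58.1 (lmFit and eBayes in R 4.3.3) with group as the only term, with Benjamini-Hochberg adjustment over all genes. Errors are moderated standard errors. Exact permutation tests used scipy 1.17.1. The fit was tested on simulated data. The members, lists and the rule for combining probe sets were chosen with earlier results of these data known. Values per array are given for SDC1, members at an unadjusted p under 0.05 and the member of lowest p in each other role. BNIP3, LDHA, PFKL, DDIT4, GBE1 and SLC2A1 were added after their values were seen. Of the second list, the 8 genes of lowest p and GAPDH, PKM and SLC2A1 are named. PFKFB1 and PGM1 were added to complete the further glycolytic genes that were higher. Same-numbered arrays did not deviate together (correlations of -0.01, -0.26 and -0.11). Deviations from the means of such small groups cannot show whether the numbers pair the arrays, and the titles do not say. The labels name no batch. The number of arrays limits the precision.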

Additional observations from a re-analysis of the deposited data

How the results depend on the processing

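None of the 38 genes passed an adjusted p of 0.05 under any of 13 alternatives, where the lowest adjusted p was 0.121. Of 479 values of these genes under the alternatives, 453 kept the sign reported and 26, in 12 genes, did not. The SDC1 difference kept its sign but lost the call with the replicate block (-0.84, adjusted p = 0.0929), after quantile normalization (-0.90, adjusted p = 0.0831) and without any 1 array (-0.92 to -0.78). The count of genes called, 5 as reported, was 0 with the replicate block, 39 with array weights, 3 with the mean of all probe sets, 11 with the middle and brightest classes alone, and 0 to 1 without 1 array. The count of the 38 genes at an unadjusted p under 0.05 was 5 with the replicate block, 8 with array weights and 3 to 9 without 1 array. The share of all genes at that level was not counted under these settings, so these counts have no background to be read against. These counts over the 38 genes, and those below 0, were added after seeing the data. Without probe sets of the _x_at and _s_at types, which left 24 of the 38 genes measured, 9 of the 12 other hypoxia-inducible genes left were below 0, where 14 of 20 were as reported, and P4HA1 turned to 0.0865. With array weights HK1 turned to -0.00084 and HK2 to 0.0071. With the mean of all probe sets EGLN3 turned to -0.0070, HK2 to 0.0132 and PFKP to 0.0041. Leaving out 1 array gave differences from -0.0547 to 0.0198 for EPAS1, -0.00449 to 0.0252 for EGLN3, -0.0376 to 0.0516 for HK1, -0.0773 to 0.0146 for HK2, -0.0324 to 0.0478 for GPI, -0.0967 to 0.0228 for PFKP and -0.0607 to 0.0178 for ALDOA. It gave -0.0143 to 0.0684 for ENO1, -0.0504 to 0.0267 for ENO2, -0.0471 to 0.0126 for BNIP3 and -0.161 to 0.0143 for DDIT4. Fewer arrays or genes entered the fits that left some out. The P4HA1 value is that of its dim probe set, the only one left. The mean of all probe sets took in dimmer probe sets of EGLN3, HK2 and PFKP. For the other settings the cause was not tested. The median difference stayed between -0.02 and 0.0041 for the glycolytic enzymes and between -0.16 and -0.07 for the other hypoxia-inducible genes.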
